A study of Mus musculus with 5 samples.

Results

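The comparison described here set the library labelled S_PXT1_K118R, 1 of 5 in the study, against the vector library labelled PMSCV. The cells were Ba/F3, a mouse pro-B cell line that needs interleukin-3 to grow and is used to test whether an introduced gene can drive growth. Each library came from cells infected with lentivirus, per the labels, and the study as a whole concerns an oncogenic gene fusion in leukaemia of children and how stable its mRNA is. PMSCV names a retroviral vector, and its library is the reference. S_PXT1 is the unsubstituted construct of the pair, and S_PXT1_K118R carries a lysine to arginine substitution at the residue that its name gives. WT and WT_K118R are the matching pair without PXT1 in the name, and the labels spell out neither S nor WT. Each group held 1 library, so a difference between libraries has no replicate check, and no test across libraries was made. The genes compared were the 1547 of 50867 in the deposited table whose count averaged at least 20 over the 5 libraries. The question was which of them stayed at the vector level with the substituted construct, and which still differed from it.

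As background, a substitution that replaces lysine with arginine keeps the positive charge of the side chain but removes the amine that many enzymes use or modify, and a construct made this way is often set beside the unsubstituted one. A vector control carries neither. A gene that differs from the vector with the unsubstituted construct and not with the substituted one is therefore described separately from a gene that differs with both. Among the genes below, CITED2 encodes a coregulator that binds CBP and p300 and competes there with HIF1A. LDB1 bridges LIM-domain and GATA factors on DNA in blood cells, and GATA2 is a transcription factor of blood stem and progenitor cells. SERBP1 binds mRNA and ribosomes, and YTHDF2 reads N6-methyladenosine on mRNA and leads such mRNA to decay.

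The total count was 266905 in PMSCV and 250409 in S_PXT1_K118R, and between 259047 and 351693 in the other 3 libraries. Genes with at least 1 count numbered 7044 in S_PXT1_K118R and 7393 in S_PXT1, against 11492 to 11712 in the other 3, so these libraries stood apart in how many genes they detected. A single count was worth between 2.92 and 3.93 CPM (counts scaled by the library size). The table names genes by human identifiers although the cells are mouse, so a level is compared between libraries and not between genes. The 15 markers of pro-B and Ba/F3 cells summed to 7 counts in PMSCV and 0 in S_PXT1_K118R, with CD79B, VPREB1 and IGLL1 at 0 in all 5 libraries, so the labelled cell type was not visible in these counts. PXT1 (ENSG00000179165) had 0 counts in all 5 libraries and gave no check of the labels.

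With the substituted construct most genes lay at the vector level. Of the 1547 genes, 1196 (77.3%) were within 1.5-fold of PMSCV on the log2 scale of CPM plus 1. Another 104 genes were 1.5 to 2-fold higher and 70 were 1.5 to 2-fold lower. The remaining 177 genes (11.4%) were at least 2-fold apart, of which 48 (3.1%) were higher in S_PXT1_K118R and 129 (8.34%) were lower. The filter averaged all 5 libraries, so this split by direction depends in part on the levels in the other libraries. The exact 95% interval of the ratio of the 2 counts, which covers counting error only, excluded 1 for 47 of the higher and 127 of the lower genes. The median log2 ratio of all genes tested was 0.15. In bulk RNA, fewer cells that express a gene and less RNA per cell cannot be told apart. The shares differed with depth. Between 20 and 50 counts 66.0% of 668 genes were within the vector level, and between 100 and 500 counts 90.3% of 414 genes were. Among the 505 genes that averaged at least 100 counts, 6 (1.19%) were 2-fold higher and 12 (2.38%) were 2-fold lower. The 7 genes exactly at the minimum of 20 had log2 ratios from -2.12 to 0.46, and the 9 just under it from -1.18 to 0.30.

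**Figure D1:**
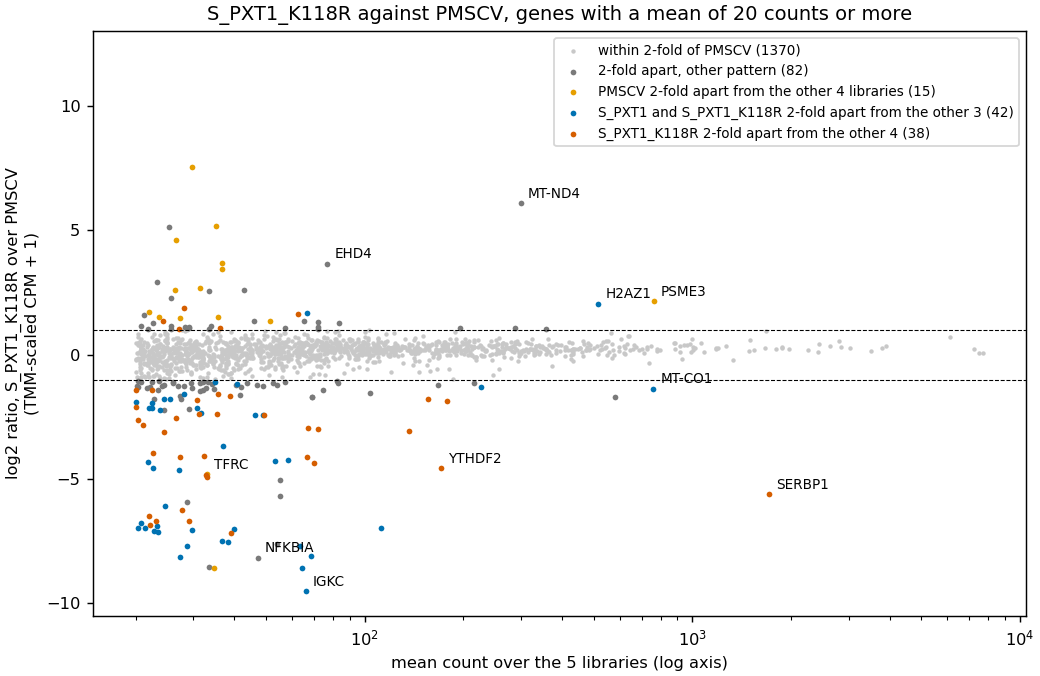
Each point is 1 of 1547 genes, with its mean count over the 5 libraries on a log axis and its log2 ratio of S_PXT1_K118R over PMSCV on the vertical axis. Dashed lines mark 2-fold, and colours show whether S_PXT1_K118R, both S_PXT1 libraries or PMSCV stood apart from the other libraries. Most of the 177 genes outside the lines lie at low counts, while SERBP1, YTHDF2, H2AZ1 and PSME3 lie outside them at higher counts.

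Genes at the vector level with S_PXT1_K118R but higher with S_PXT1 included 3 regulators of blood progenitors. CITED2 (ENSG00000164442) had 450 reads in PMSCV, 1291 reads in S_PXT1, 403 reads in S_PXT1_K118R, 602 reads in WT and 133 reads in WT_K118R. S_PXT1 stood above every other library, S_PXT1_K118R was next to PMSCV, and WT_K118R was the lowest. Against PMSCV the S_PXT1 level was 3.15-fold (interval 2.82 to 3.51), and the S_PXT1_K118R level was 0.990-fold (0.863 to 1.135). LDB1 (ENSG00000198728) had 74, 239, 78, 83 and 101 counts in the same order of libraries. Only S_PXT1 stood more than 2-fold above PMSCV for LDB1, and S_PXT1_K118R was 1.17-fold (0.837 to 1.62). GATA2 (ENSG00000179348) had 96, 202, 84, 128 and 123 counts, and S_PXT1_K118R was 0.967-fold (0.713 to 1.31). All 3 intervals of S_PXT1_K118R over PMSCV included 1, and none of them reached 2-fold in either direction. The genes are placed here because that same ratio was within 1.5-fold, so this outcome was nearly fixed by the choice.

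S_PXT1 was at least 2-fold above PMSCV for 54 genes (3.49% of those tested) and at least 2-fold below it for 121 (7.82%). Both comparisons share the PMSCV library, so the ratios below are set side by side and no correlation is given. Of the 54 higher genes, 16 (29.6%) were within 1.5-fold of PMSCV in S_PXT1_K118R, 8 were between 1.5-fold and 2-fold, 27 were still 2-fold higher, and 3 were past 1.5-fold in the opposite direction. Of the 121 lower genes, 30 (24.8%) were at the vector level, 12 were between, 76 (62.8%) were still 2-fold lower, and 3 were opposite. Over all tested genes 77.3% were within 1.5-fold of PMSCV in S_PXT1_K118R, 3.1% were 2-fold higher and 8.34% were 2-fold lower. For 13 of the 27 still higher and 2 of the 76 still lower, PMSCV itself was 2-fold apart from every other library. Those differences were therefore not particular to the S_PXT1 pair. With those genes included, genes that still differed outnumbered genes at the vector level in each direction. At a mean count of 100 or more the order of the higher genes was the reverse, with 7 at the vector level and 3 still higher. It was also the reverse with 1.5-fold as the threshold, at 82 and 76 genes, and with no filter, at 840 and 480. Conversely, of 1188 genes within 1.5-fold of PMSCV in S_PXT1, 11 were 2-fold higher and 36 were 2-fold lower in S_PXT1_K118R.

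**Figure D2:**
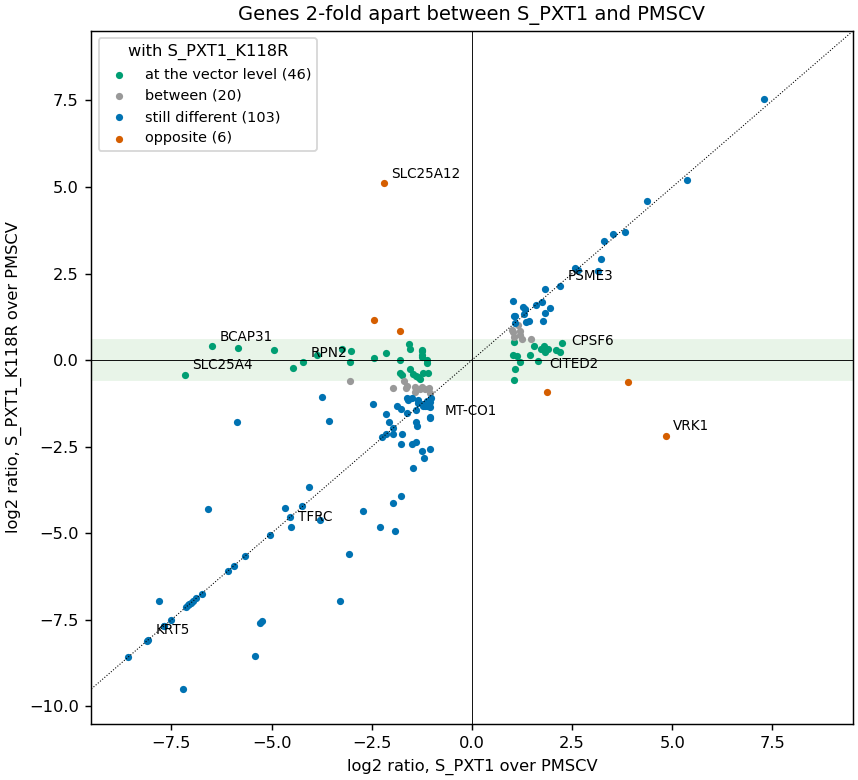
Each point is a gene at least 2-fold apart between S_PXT1 and PMSCV, with the log2 ratio of S_PXT1 over PMSCV on the horizontal axis and that of S_PXT1_K118R over PMSCV on the vertical axis, which share the PMSCV library. The shaded band is within 1.5-fold of PMSCV and holds 46 genes, the dotted line marks equal ratios, and 103 genes are still 2-fold apart in the same direction.

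Other genes higher with S_PXT1 and at the vector level with S_PXT1_K118R had varied roles. CPSF6, a subunit of the cleavage factor that selects polyadenylation sites, had 33 reads in PMSCV, 140 reads in S_PXT1, 35 reads in S_PXT1_K118R, 164 reads in WT and 159 reads in WT_K118R. PMSCV and S_PXT1_K118R were the 2 low libraries for CPSF6. SNW1, a component of the spliceosome and a transcriptional coactivator, had 17, 67, 19, 69 and 23 counts in that order. Both K118R libraries lay near PMSCV for SNW1, while S_PXT1 and WT were high. ASXL1, a Polycomb-associated chromatin regulator often mutated in myeloid disease, had 21, 72, 24, 42 and 45 counts. CBX1, a heterochromatin protein, had 57, 181, 68, 84 and 228 counts, so its S_PXT1_K118R level was 1.32-fold that of PMSCV, while S_PXT1 and WT_K118R were both high. TRIM27, a RING-domain protein, had 14, 62, 18, 32 and 26 counts. DERL1 of the endoplasmic reticulum degradation pathway had 21, 64, 24, 80 and 68. ZDHHC3, a palmitoyltransferase, had 59, 158, 71, 73 and 103, and ZCCHC2 had 29, 73, 29, 36 and 104. S_PXT1_K118R was the library closest to PMSCV for TRIM27 and DERL1, and it and WT were both near PMSCV for ZDHHC3 and ZCCHC2.

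Genes lower with S_PXT1 and at the vector level with S_PXT1_K118R included several that were nearly or fully undetected in S_PXT1 alone. SLC25A4, the mitochondrial ADP/ATP carrier, had 40 reads in PMSCV, 0 reads in S_PXT1, 27 reads in S_PXT1_K118R, 59 reads in WT and 25 reads in WT_K118R. BCAP31, a chaperone and sorting factor of the endoplasmic reticulum membrane, had 25, 0, 30, 38 and 23. S_PXT1 was thus at least 12.2-fold below PMSCV for SLC25A4 and at least 7.6-fold below it for BCAP31, while all other libraries held 23 counts or more of each. RPN2 (ENSG00000118705), a subunit of the oligosaccharyltransferase, had 127, 6, 110, 191 and 161 counts, and S_PXT1_K118R was 0.958-fold (0.735 to 1.25) of PMSCV. DNAJC8, a J-domain protein that binds splicing factors, had 76, 2, 85, 137 and 94, and MEX3C, an RNA-binding ubiquitin ligase, had 99, 11, 107, 119 and 157. These 3 genes were low in S_PXT1 only. HMGB2, a chromatin protein that bends DNA, had 56, 6, 49, 19 and 67 counts, so WT was also low. MARCHF5, a ubiquitin ligase of the outer mitochondrial membrane, had 30, 1, 23, 30 and 33. TUBGCP4, a part of the gamma-tubulin ring complex, had 20, 1, 20, 28 and 36, and SPAG7 had 23, 2, 26, 25 and 32. RBM4 had 78, 1, 90, 42 and 33 counts, but its model overlaps that of RBM14-RBM4, which had 7, 98, 4, 63 and 13. With the overlapping models summed the log2 ratio of S_PXT1 over PMSCV was 0.08 and that of S_PXT1_K118R was -0.15, so neither library differed by 2-fold at that locus. The best covered gene of the class was TUBA1C, an alpha-tubulin, with 3489 reads in PMSCV, 1346 reads in S_PXT1, 3808 reads in S_PXT1_K118R, 5332 reads in WT and 5043 reads in WT_K118R. Its S_PXT1_K118R level was 1.21-fold (1.15 to 1.26) of PMSCV and its S_PXT1 level was 2.36-fold lower (2.22 to 2.52).

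**Figure D3:**
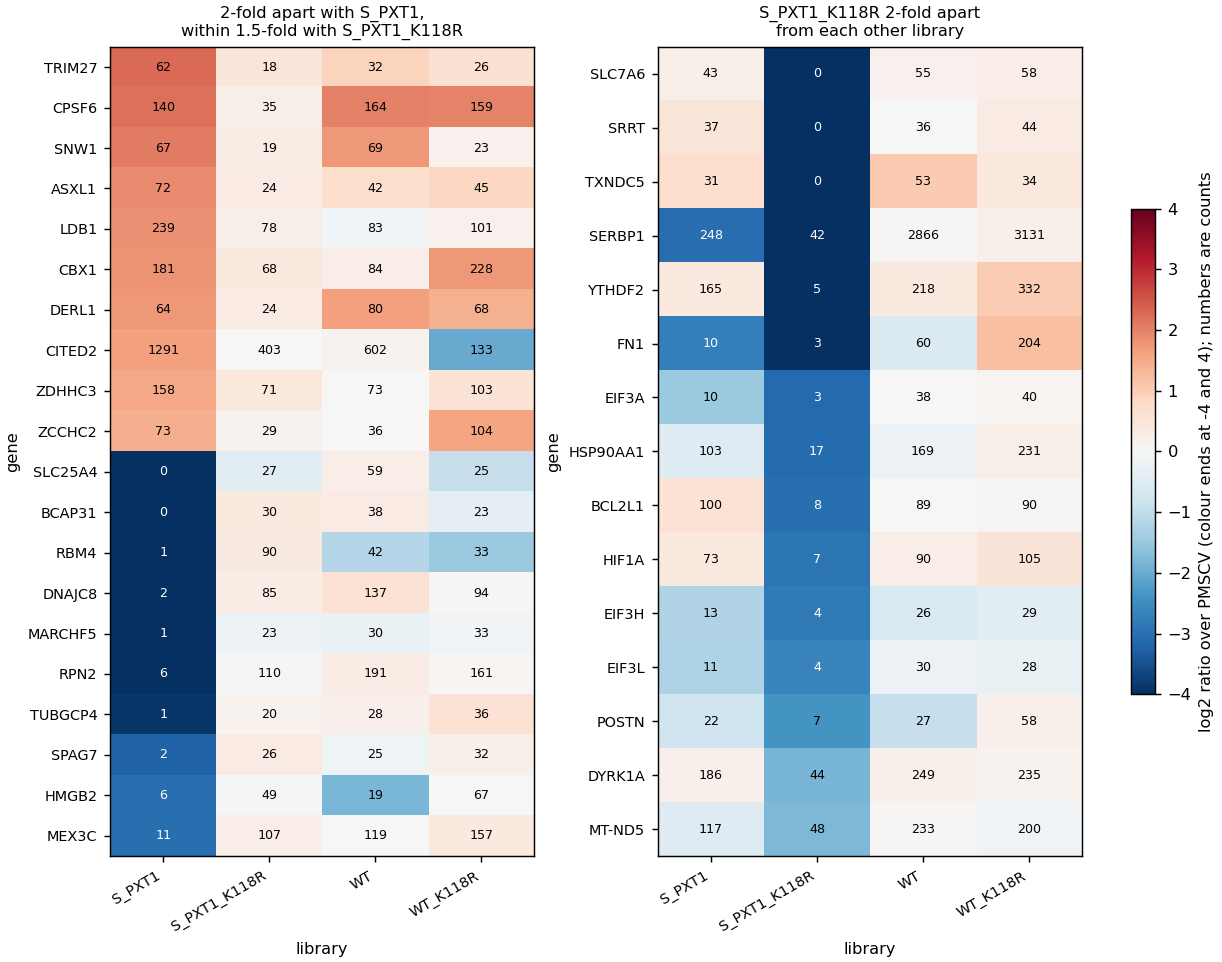
Rows are named genes and columns are libraries; the number in each cell is the count, and the colour is the log2 ratio over PMSCV, with the scale ending at -4 and 4. On the left are genes 2-fold apart in S_PXT1 and within 1.5-fold of PMSCV in S_PXT1_K118R, and on the right are genes for which S_PXT1_K118R was 2-fold apart from each of the other 4 libraries.

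A gene was next asked to separate S_PXT1_K118R from each of the other 4 libraries by at least 2-fold, with counts under 3 set to 3. Of the 177 genes 2-fold apart from PMSCV, 38 did so, 5 of them higher and 33 lower. The filter averaged all 5 libraries, so a gene low in S_PXT1_K118R alone passed more easily than a gene high there alone. The split by direction is therefore set in part by the filter. SERBP1 (ENSG00000142864) was the best covered, with 2271 reads in PMSCV, 248 reads in S_PXT1, 42 reads in S_PXT1_K118R, 2866 reads in WT and 3131 reads in WT_K118R. Both S_PXT1 libraries were low and S_PXT1_K118R was the lowest, at 48.9-fold (36.1 to 68.1) below PMSCV against 8.35-fold (7.32 to 9.56) for S_PXT1. YTHDF2 (ENSG00000198492) had 137, 165, 5, 218 and 332 counts, so S_PXT1_K118R was 24.8-fold (10.4 to 77.5) below PMSCV and S_PXT1 was not below it. HSP90AA1 (ENSG00000080824), the inducible cytosolic HSP90 chaperone, had 162, 103, 17, 169 and 231 counts and was 8.62-fold lower (5.22 to 15.2). DYRK1A (ENSG00000157540), a dual-specificity kinase, had 177, 186, 44, 249 and 235 counts and was 3.64-fold lower. That each of the other libraries lay above S_PXT1_K118R for these 4 genes follows from how they were chosen.

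BCL2L1 and HIF1A were also 2-fold lower in S_PXT1_K118R than in each other library. BCL2L1 (ENSG00000171552), which encodes the anti-apoptotic protein BCL-XL, had 73 reads in PMSCV, 100 reads in S_PXT1, 8 reads in S_PXT1_K118R, 89 reads in WT and 90 reads in WT_K118R. HIF1A (ENSG00000100644), the oxygen-regulated subunit of the HIF1 transcription factor, had 61, 73, 7, 90 and 105. S_PXT1_K118R was 8.25-fold (3.98 to 19.8) below PMSCV for BCL2L1 and 7.88-fold (3.60 to 20.4) below it for HIF1A. NFKBIA (ENSG00000100906), the inhibitor that holds NF-kB in the cytoplasm, had 80, 104, 0, 3 and 49 counts, so S_PXT1_K118R was at least 24.1-fold below PMSCV but WT was also low. Of the 33 genes, 6 had no count in S_PXT1_K118R at all. SLC7A6, an amino acid transporter, had 40, 43, 0, 55 and 58 counts and was at least 12.1-fold lower, and SRRT, a nuclear cap-binding cofactor, had 29, 37, 0, 36 and 44 and was at least 8.74-fold lower. The others were CUL4B, CMAS, UBN1 and TXNDC5, with 21 to 32 counts in PMSCV. CUL4B, CMAS and UBN1 are named after their values were seen. TXNDC5 shares its locus with other models, and its log2 ratio was -1.59 with these summed.

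The genes higher in S_PXT1_K118R than in each of the other 4 libraries were RAB2A, SPTBN1, BSG, MED1 and MYCN, named after their values were seen. MED1, the Mediator subunit that contacts nuclear receptors and GATA factors, had 41 reads in PMSCV, 39 reads in S_PXT1, 115 reads in S_PXT1_K118R, 56 reads in WT and 62 reads in WT_K118R, a 3.10-fold difference (2.15 to 4.54). MYCN, a MYC family transcription factor, had 16, 26, 54, 24 and 20 counts and was 3.73-fold higher (2.10 to 6.98). RAB2A, a small GTPase of the secretory pathway, had 25, 15, 47, 26 and 23. The other 4 libraries held 39 to 62 reads of MED1 and 16 to 26 reads of MYCN.

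Both S_PXT1 libraries stood apart from PMSCV, WT and WT_K118R for 42 genes, 2 higher and 40 lower. The filter sets this split in part too, since genes low in the S_PXT1 libraries passed it more easily than genes high only there. H2AZ1 (ENSG00000164032), the H2A.Z histone variant found at promoters, had 231 reads in PMSCV, 745 reads in S_PXT1, 868 reads in S_PXT1_K118R, 438 reads in WT and 302 reads in WT_K118R. S_PXT1_K118R was 4.15-fold (3.59 to 4.82) and S_PXT1 was 3.54-fold (3.05 to 4.12) above PMSCV, and WT lay between. SCAF8, a reader of the RNA polymerase II tail, chosen for naming once its values were known, had 35, 107, 101, 44 and 46. On the lower side MT-CO1, a core subunit of cytochrome c oxidase, had 896, 396, 314, 1088 and 1109 counts and was 2.58-fold lower (2.27 to 2.94). B2M, the light chain of MHC class I, had 61, 16, 10, 62 and 95 and was 5.52-fold lower. NEAT1, the paraspeckle RNA, had 106, 2, 0, 86 and 128 and was at least 32.0-fold lower. MALAT1, a nuclear long noncoding RNA named after its values were seen, had 60, 3, 4, 60 and 58. For NEAT1 and MALAT1 both S_PXT1 libraries were near or at the counting floor, and for MT-CO1 they were far above it. Of these 40 genes, 17 had no count in S_PXT1_K118R and 13 had none in either S_PXT1 library.

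For 15 genes PMSCV itself was 2-fold apart from the other 4 libraries, so the difference was not particular to the substituted construct. Seen from PMSCV, 13 were higher and 2 were lower in S_PXT1_K118R. PSME3 (ENSG00000131467), the PA28-gamma activator of the nuclear proteasome, had 194 reads in PMSCV, 814 reads in S_PXT1, 781 reads in S_PXT1_K118R, 994 reads in WT and 1025 reads in WT_K118R, a 4.45-fold difference (3.80 to 5.24). CARM1, an arginine methyltransferase, had 3, 42, 38, 53 and 47 counts, a ratio of 14.0 (4.44 to 70.9) that rests on 3 counts in PMSCV. SPRED2, an inhibitor of RAS to ERK signalling, had 14, 31, 37, 50 and 46 and was 2.92-fold higher. TFRC (ENSG00000072274), the transferrin receptor that brings iron into dividing cells, was the reverse case, with 132, 5, 4, 12 and 12 counts. PMSCV alone was high for TFRC, and S_PXT1_K118R was 29.9-fold (11.4 to 111) below it.

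The remaining 82 genes followed none of these patterns. EHD4 (ENSG00000103966), an endocytic ATPase, had 10 reads in PMSCV, 108 reads in S_PXT1, 117 reads in S_PXT1_K118R, 24 reads in WT and 126 reads in WT_K118R. SLC7A5, the large neutral amino acid transporter, had 11, 63, 62, 6 and 72, and HIPK3, a nuclear kinase, had 7, 59, 39, 13 and 49. PMSCV and WT were the 2 low libraries for all 3 genes, and S_PXT1_K118R was 12.9-fold (6.79 to 27.7), 6.23-fold and 6.16-fold above PMSCV. At higher counts the RNA-binding protein HNRNPR had 275, 295, 515, 353 and 350 counts and was 2.07-fold higher (1.78 to 2.41) in S_PXT1_K118R. USP34, a deubiquitinase, had 175, 281, 330, 314 and 335, and the stress granule protein G3BP2 had 109, 210, 207, 252 and 200. For USP34 and G3BP2 all 4 other libraries lay above PMSCV, so their ratios of 2.08 and 2.10 were not particular to S_PXT1_K118R.

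The 6 genes past 1.5-fold in opposite directions in S_PXT1 and S_PXT1_K118R were named after their values were seen, apart from the mitochondrial carriers SLC25A12 and SLC25A5. SLC25A12, the aspartate and glutamate carrier, had 1 reads in PMSCV, 0 reads in S_PXT1, 40 reads in S_PXT1_K118R, 46 reads in WT and 39 reads in WT_K118R. PMSCV and S_PXT1 were both at the floor, so the ratio of 44.2 (7.49 to 1790) came from 1 count. SLC25A5, an ADP/ATP carrier, had 39, 10, 63, 91 and 24 counts. NONO, a paraspeckle protein that binds RNA and DNA, had 48, 161, 23, 61 and 47, so S_PXT1 was the highest library and S_PXT1_K118R the lowest. VRK1 had 1, 33, 0, 49 and 62, and its place among the lower genes rests on 1 count. SENP3 and RBM14-RBM4 overlap other models, and with these summed the log2 ratios of S_PXT1_K118R were -0.01 and -0.15.

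Gene lists were described by how many tested members were 2-fold apart, against 3.1% higher and 8.34% lower over all tested genes. Transcripts of the mitochondrial chromosome were lower as a group. Of 11 tested mRNAs for respiratory chain and ATP synthase subunits, 7 were lower and 1 was higher, with a median log2 ratio of -1.16 against 0.15 over all genes. Together they held 2513 reads in PMSCV, 1267 reads in S_PXT1, 1192 reads in S_PXT1_K118R, 3704 reads in WT and 3513 reads in WT_K118R. Scaled to library size, S_PXT1_K118R was 0.524-fold (0.489 to 0.562) and S_PXT1 was 0.553-fold (0.516 to 0.592) of PMSCV. MT-CYB, the cytochrome b subunit, had 253, 99, 92, 341 and 346 counts, and MT-ND5, a subunit of complex I, had 184, 117, 48, 233 and 200. MT-RNR2, the large mitochondrial ribosomal RNA, had 742, 405, 207, 780 and 761 and was 3.24-fold lower (2.78 to 3.80). The high gene, MT-ND4, had 3, 2, 203, 625 and 665 counts, while MT-ND4L had 103, 63, 0, 1 and 0. These models overlap, and their sum was higher by 1.08 on the log2 scale in S_PXT1_K118R. MT-ATP6 had 32, 1, 1, 44 and 35 counts, and with the overlapping MT-ATP8 its locus was at -0.83. The 4 tested nuclear-encoded respiratory chain genes held 0 lower and 1 higher, NDUFB9 with 15, 29, 33, 21 and 15 counts.

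Genes of the translation machinery were divided. Of 21 tested initiation and elongation factors, 0 were higher and 6 were lower, while the median log2 ratio was 0.13 and the summed count was 1.30-fold (1.27 to 1.33) of PMSCV. The sum was dominated by EIF4G2, a scaffold for cap-independent initiation, with 4357 counts in PMSCV and 6387 in S_PXT1_K118R, and without it the sum was 1.15-fold (1.11 to 1.18). Of the lower members, 4 were subunits of eIF3, the complex that joins mRNA to the small ribosomal subunit. EIF3A had 31 reads in PMSCV, 10 reads in S_PXT1, 3 reads in S_PXT1_K118R, 38 reads in WT and 40 reads in WT_K118R. EIF3H had 33, 13, 4, 26 and 29, EIF3L had 29, 11, 4, 30 and 28, and EIF3E had 34, 14, 12, 29 and 19. S_PXT1_K118R was the lowest library for all 4 and S_PXT1 the next. For EIF3E these lay close to WT_K118R, at 47.2 and 54.6 against 56.3 CPM. The ratios of PMSCV to S_PXT1_K118R were 9.35 (2.92 to 47.8) for EIF3A and 7.46 (2.65 to 29.0) for EIF3H. EEF1A1, the elongation factor that delivers aminoacyl-tRNA, had 210, 96, 82, 237 and 215 and was 2.32-fold lower (1.79 to 3.03). Of 38 tested cytosolic ribosomal proteins, 0 were higher and 5 were lower, with a median of -0.31, while their summed count was 1.10-fold (1.06 to 1.14) of PMSCV. The median and the sum differ in sign here, and RPLP0 alone had 2032 counts in PMSCV and 2675 in S_PXT1_K118R. Without RPLP0 the sum was 0.876-fold (0.832 to 0.923) of PMSCV. EIF4G2 and RPLP0 were picked for their share of these sums.

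Chaperones were lower in part. Of 13 tested members of the cytosolic chaperone list 3 were lower and 0 higher, with a median log2 ratio of -0.71. The summed count of the list was 0.703-fold (0.640 to 0.773) of PMSCV against 0.827-fold for S_PXT1. Beside HSP90AA1 the lower members were HSP90AB1, with 110, 55, 48, 88 and 110 counts, and HSPD1, with 52, 23, 15, 49 and 69. HSPD1 is the mitochondrial chaperonin and so is not cytosolic. Of 16 tested chaperones and translocon parts of the endoplasmic reticulum 4 were lower and 0 higher, and the sum was 0.717-fold (0.649 to 0.791). HSP90B1, the endoplasmic reticulum HSP90, had 66, 21, 11, 65 and 69 counts and was 5.43-fold lower (2.84 to 11.4). Its S_PXT1 level was low as well.

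The lists that hold CITED2, LDB1 and GATA2 summed to near the vector level with S_PXT1_K118R and above it with S_PXT1, in large part through these genes. The CBP and p300 coregulators summed to 1014 reads in PMSCV, 1978 reads in S_PXT1, 915 reads in S_PXT1_K118R, 1324 reads in WT and 931 reads in WT_K118R. That was 0.998-fold (0.911 to 1.09) of PMSCV for S_PXT1_K118R and 2.14-fold (1.98 to 2.31) for S_PXT1, and without CITED2 the interval for S_PXT1_K118R was 0.889 to 1.13 and S_PXT1 was at 1.34-fold. Of their 9 tested members, HIF1A and NCOA2 were lower with S_PXT1_K118R and 0 were higher. The blood progenitor transcription factors gave 1.08-fold (0.964 to 1.20) against 1.64-fold (1.48 to 1.81), and without LDB1 and GATA2 they gave 1.08-fold (0.955 to 1.23) against 1.23-fold (1.09 to 1.39). ID2, which blocks basic helix-loop-helix factors, was the 1 lower member of 9. Tubulins gave 1.16-fold (1.11 to 1.20) against 0.695-fold (0.664 to 0.726), but without TUBA1C they gave 1.05-fold (0.976 to 1.13) against 1.30-fold (1.22 to 1.40), so the S_PXT1 direction was that of TUBA1C. Mitochondrial carriers of the SLC25 family gave 1.11-fold (0.892 to 1.39) against 0.324-fold (0.230 to 0.447). SLC25A12, SLC25A5 and SLC25A4 made up most of their 167 counts in S_PXT1_K118R, with 40, 63 and 27. In PMSCV these genes had 1, 39 and 40 of 166 counts. Of the 21 carriers, 9 had no count in S_PXT1_K118R and 2 had none in PMSCV, and the sum without the leading members was not taken. These lists were chosen with such differences already known.

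**Figure D4:**
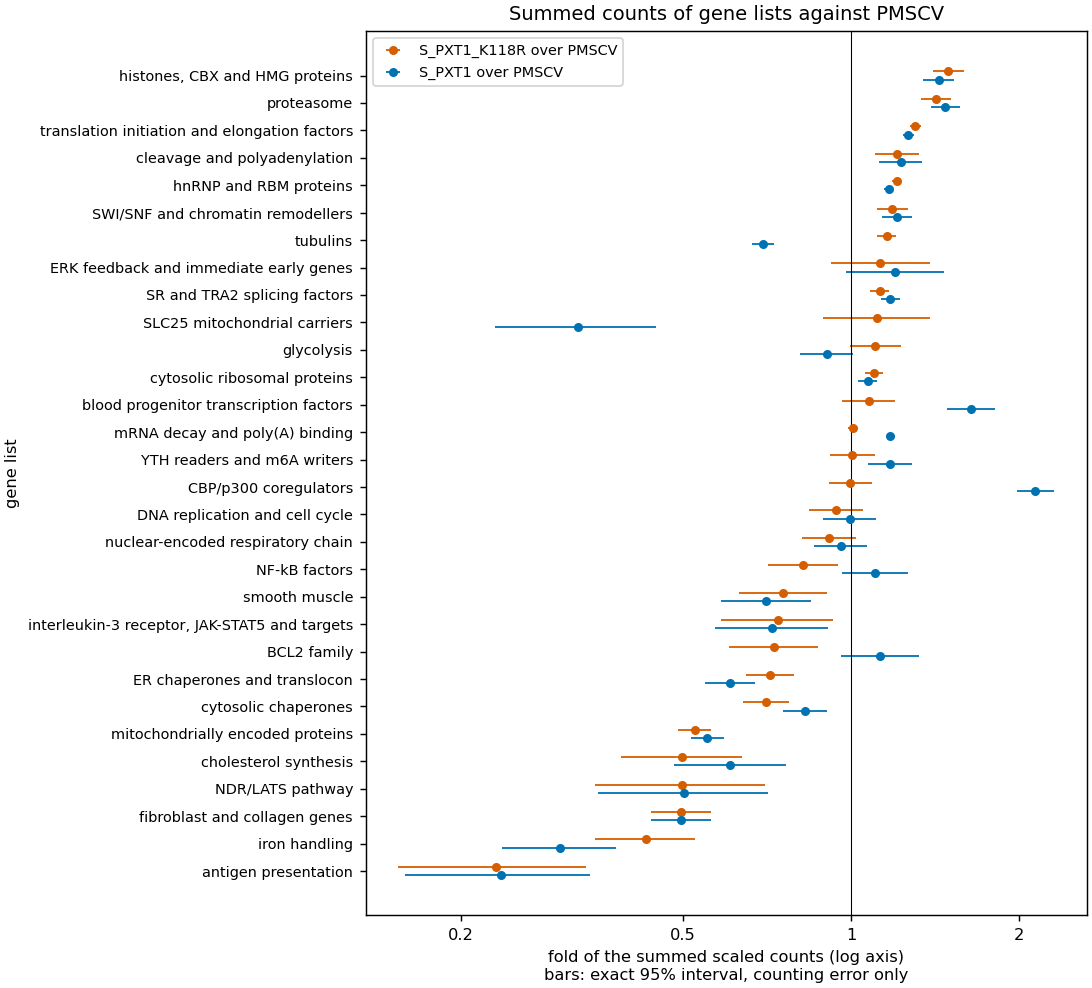
Each row is a gene list with at least 100 counts in PMSCV, and points show its summed scaled counts as a fold of PMSCV on a log axis for S_PXT1_K118R and for S_PXT1, with exact intervals that cover counting error only. The lists of plasma cell, keratin and prostate markers lie below the plotted range and are left out. S_PXT1_K118R lies near 1 for the CBP/p300 list at 0.998-fold and low for the mitochondrially encoded list at 0.524-fold.

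Most tested RNA regulators were within 2-fold of the vector, as were most tested genes. Over all 1547 tested genes, 177 (11.4%) were 2-fold apart. Of 42 tested hnRNP and RBM proteins 3 were higher, HNRNPR, HNRNPF and RBM42, and 0 were lower. Of the 23 tested members of the SR and TRA2 list the 1 lower was SRRT, a nuclear cap-binding cofactor and not an SR or TRA2 protein. Of 9 cleavage and polyadenylation factors 0 were 2-fold apart. Among 30 mRNA decay and poly(A)-binding proteins G3BP2 and UPF2 were higher and SERBP1 and ELAVL1 lower. ELAVL1, the HuR protein that stabilises mRNA with AU-rich elements, had 33 reads in PMSCV, 2 reads in S_PXT1, 14 reads in S_PXT1_K118R, 18 reads in WT and 35 reads in WT_K118R. Of 7 tested YTH readers and m6A writers YTHDF2 was the 1 lower. Of 14 SWI/SNF and remodelling subunits 0 were 2-fold apart. Of 11 proteasome genes PSME3 was the 1 higher and 0 were lower, and of 12 histone, CBX and HMG genes H2AZ1 was higher and HMGB1 lower. HMGB1 had 71, 21, 22, 28 and 376 counts, and WT_K118R was far above the others.

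Growth and survival signalling was thinly covered. Of the interleukin-3 receptor and JAK-STAT5 list 2 genes were tested and 0 were 2-fold apart. The whole list, with members below the filter, summed to 190 counts in PMSCV and 127 in S_PXT1_K118R. That was 0.739-fold of PMSCV, against 0.721-fold for S_PXT1, and both intervals lay below the PMSCV level. The BCL2 family list held 3 tested genes, BCL2L1, BCL2 and BIRC6, of which BCL2L1 was lower. BIRC6 is not itself a BCL2 family protein. The list's sum was 0.727-fold (0.605 to 0.872) of PMSCV, against 1.13-fold (0.961 to 1.33) for S_PXT1. It was 304 counts in PMSCV and 200 in S_PXT1_K118R, of which BCL2L1 held 73 and 8, and a sum without BCL2L1 was not taken. Of 5 tested genes of DNA replication and the cell cycle 0 were 2-fold apart, and their list summed to 0.940-fold (0.840 to 1.05) of PMSCV. Of 9 glycolysis genes GPI was higher, with 16, 17, 30, 31 and 34 counts, and 0 were lower. The list of interferon-stimulated genes held 0 tested members, and it held 65 reads in PMSCV, 15 reads in S_PXT1, 5 reads in S_PXT1_K118R, 36 reads in WT and 122 reads in WT_K118R.

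Markers of several other tissues were lower in S_PXT1_K118R. Their tested members passed the filter through the libraries where they are high, so the lists are given by the sums of all matched members. The keratins and squamous epithelium list summed to 534 reads in PMSCV, 2 reads in S_PXT1, 6 reads in S_PXT1_K118R, 1406 reads in WT and 813 reads in WT_K118R. The prostate epithelium list summed to 237, 1, 0, 239 and 220 counts. The plasma cell list summed to 751, 2, 2, 501 and 29. Fibroblast and collagen genes summed to 839, 380, 376, 826 and 1263, and antigen presentation genes to 163, 35, 34, 212 and 363. KRT5, a keratin of basal epithelium, had 76, 0, 0, 106 and 161 counts. KLK3, the prostate-specific antigen, had 51, 0, 0, 62 and 71, and IGKC, the immunoglobulin kappa constant region, had 204, 1, 0, 117 and 8. COL1A2, a fibrillar collagen, had 90, 3, 4, 68 and 102, and FN1, fibronectin, had 74, 10, 3, 60 and 204. They were among 4 lower members of the 8 tested in the fibroblast and collagen list, while 3 were within 1.5-fold of PMSCV. The S_PXT1 libraries held at most 6 counts of the keratin, prostate and plasma cell lists but 376 and 380 of the fibroblast and collagen list, and WT_K118R was low for the plasma cell list. The part that these transcripts played in the other lower genes was not tested. Without the tested members of the lists of other tissues 109 genes were lower and 48 higher. The smooth muscle list summed to 297, 191, 203, 668 and 304 counts. Of its 3 tested members, MYH11 had 54, 1, 0, 215 and 1 counts and was at least 16.3-fold lower. TPM1, a tropomyosin, had 152, 166, 155, 178 and 188, FLNA had 36, 24, 36, 76 and 72, and neither was lower. Of the 15 matched members, 10 had no count in S_PXT1_K118R, against 1 in PMSCV. T cell and mast cell markers summed to 3 and 6 counts in PMSCV and to 0 in S_PXT1_K118R, and myeloid markers to 10 and 0.

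Gene position and sequence composition were set beside the calls as measures that the ratios did not use. Of 13 tested genes on the mitochondrial chromosome, 9 were 2-fold lower, 1 was 2-fold higher and 1 was within 1.5-fold of PMSCV. Mouse genes of the same symbol were found for 1384 of the 1547 tested genes in GENCODE M21. The longest transcript had a median length of 3730 bases (quartiles 2313 and 6220) for the matched lower genes and 3846 bases (2633 and 5758) for the 40 matched higher genes, against 4135 bases (2942 and 5983) within 1.5-fold. The median GC content was 47.8% for lower, 48.0% for higher and 46.5% for genes within 1.5-fold of PMSCV. The quartile ranges of all 3 classes overlapped for both measures.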

How the data were processed

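RNA was sequenced from 1 library in each of 5 groups of Ba/F3 cells. Per the file headers, the deposited table gives for every library a raw count and an FPKM value, which scales the count by gene length and depth. Tools listed without a role in the submitters' processing notes are FastQC, HISAT2 2.2.1 and cutadapt 1.9. The way reads were counted, the strand setting, the build and the annotation are all not given in the sources used here. Genes carry human identifiers and human positions, which are not printed since their build is not given, and how fully mouse transcripts were counted on human models is unknown. There were 0 value columns without a library.

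Counts of all genes were scaled with edgeR's trimmed mean of M values (TMM), version 4.0.16 under R 4.3.3. Ratios are log2 of TMM-scaled CPM plus 1 CPM, which understates differences of low genes. A gene was called at 2-fold, and the vector level was within 1.5-fold. Folds with intervals leave out the pseudocount, and the interval is the exact 95% conditional binomial one. Intervals cover counting error only, since reads that lack molecular identifiers need not be independent molecules. A fold against 0 counts uses a floor of 3 counts per library, between 8.77 and 11.8 CPM. The scripts were tested on simulated data. Lists, 39 in all with 958 of 980 symbols matched and 333 entries tested, and the members described were chosen with earlier results of these data known. Named were the 15 highest and 15 lowest ratios, genes 2-fold apart at a mean of at least 100 counts, the 10 highest and 10 lowest S_PXT1 ratios at the vector level, 2 to 4 members of each list, and PXT1, CITED2, LDB1, GATA2, BCL2L1, NFKBIA and TFRC. Clone names, pseudogenes and symbols on several lines were left out of that rule. Alternatives were DESeq2 1.42.0 size factors, unscaled totals, other pseudocounts, filters and thresholds, FPKM, thinning and summed overlapping models. Transcript lengths and GC content came from the GENCODE M21 mouse transcripts by symbol.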

Additional observations from a re-analysis of the deposited data

How the results depend on the processing

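The 6 counts below are the genes higher and lower in S_PXT1_K118R than in PMSCV, the S_PXT1-higher genes at the vector level and still different, and the S_PXT1-lower genes at the vector level and still different. They were 48, 129, 16, 27, 30 and 76. All 6 stayed within 1.5 times these values with DESeq2 size factors, unscaled totals, FPKM, pseudocounts of 0.1 and 5 CPM, summed overlapping models and the limit to intervals that exclude 1. The FPKM setting is no separate check, since 99.99% of the values checked equalled the count over gene length and a library factor. Its ratios were also centred on the median of the count ratios. Thinning to the smaller total was run for the first 2 counts, which were 49 and 130. At 1.5-fold the counts were 152, 199, 82, 76, 72 and 117, and at 3-fold they were 21, 82, 8, 15, 15 and 45. With a mean of at least 10 counts they were 78, 374, 24, 42, 79 and 232, with at least 100 they were 6, 12, 7, 3, 2 and 5, and with no filter 1352, 6795, 840, 480, 766 and 5420. These settings differ in the threshold or in the genes tested, and what changed the counts was not tested. For the S_PXT1-higher genes, those at the vector level outnumbered those still different at 1.5-fold, at 100 counts and with no filter. MT-ND4L reversed with overlapping models summed, to 1.08 on the log2 scale, since its locus holds MT-ND4.

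Chosen after seeing the data were 4 further settings, and all 6 counts stayed within 1.5 times under each; summing 5 lists without their leading members was chosen then too. Without the mitochondrial chromosome 47 genes were higher and 120 lower, among genes counted in PMSCV and both S_PXT1 libraries 46 and 96, without the markers of other tissues 48 and 109, and with the median of the tested genes set to 0 they were 32 and 148. No paired analysis was possible because each group had 1 library, and for the same reason no replicate could be left out. At 20 to 50 counts per gene the depth limits the ratios, since a library at 0 counts allows a level of up to 3 counts.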
